A study of Mus musculus with 12 samples.

Results

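Interferon-stimulated genes are switched on when a cell receives an interferon signal. Here 36 such genes, listed by symbol, were followed in macrophages of mouse skin. Each was matched to a probe set carrying that symbol alone in the platform annotation, and 33 of the 36 were found among the 19938 genes of the arrays. Isg15 and Gbp2, whose probe sets carry a further symbol, and Ifi44, which had no match, were not analysed here. The rule that picks the genes uses their symbols and no measured value, but the list was chosen with earlier results of these data known. None of the 33 passed the test in any of 7 comparisons between the groups, and every estimated difference of the 33 was smaller than 2-fold. The 95% intervals of 3 to 13 members, depending on the comparison, reached beyond 2-fold.

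Type I interferons bind the receptor made of Ifnar1 and Ifnar2 and, through the kinases Jak1 and Tyk2, drive a complex that includes Stat2 and Irf9 to interferon-stimulated response elements in promoters. Interferon gamma uses Ifngr1 and Ifngr2 with Jak1 and Jak2 and acts on a different motif, the gamma-activated sequence. The induced proteins sense foreign nucleic acid, block translation, degrade RNA, disrupt pathogen compartments and help to present antigen. Many are also present at a low level without infection, and macrophages carry the receptors for both interferon types.

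The cells came from the skin of untreated wild-type C57BL/6 mice kept free of specific pathogens. They were sorted as CD11b+ CD24- CD64+ CCR2- Ly6c- cells as melanophages or as macrophages, and each kind was divided by surface MHC-II, which gave 4 groups with 3 arrays each. A melanophage is a macrophage loaded with melanin, and these were taken at high side scatter. For the macrophages the labels contradict each other on side scatter, so it was not used here. The labels read here state no age, number of animals or pooling. They also do not say that the arrays of a group are separate animals, and p-values therefore reflect the spread among these arrays alone, which may be technical.

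Promoter windows of 300 bases, running from 250 before to 50 after the annotated start, were found in the RefSeq table of build GRCm38.p6 for 27 of the 36 genes. The core of the response element was searched on both strands as GAAA, any 2 bases and GAAA again, which reads TTTC, any 2 bases and TTTC on the other strand. Some genes have several windows, and a gene was counted if any of them held a match. It stood in 14 of the 27 genes (51.9%), and in 3.99% of all 27025 genes with a window. The same core followed by C stood in 12 of 27 (44.4%), against 0.944% of all genes. The gamma-activated motif TTCNNNGAA, which reads the same on both strands, stood in 8 of 27 (29.6%), against 9.55%. A match is a string of letters and not a shown binding site, and the absence of one says only that these letters are not in that window. The 250 bases before the start of Ifit1, at chr19:34640639-34640888 on the plus strand, are shown because Ifit1 had the largest estimated difference of the 33 genes in both averaged comparisons. They hold a pair of matches, in capitals, that begin 104 and 85 bases before the start.
Ifit1: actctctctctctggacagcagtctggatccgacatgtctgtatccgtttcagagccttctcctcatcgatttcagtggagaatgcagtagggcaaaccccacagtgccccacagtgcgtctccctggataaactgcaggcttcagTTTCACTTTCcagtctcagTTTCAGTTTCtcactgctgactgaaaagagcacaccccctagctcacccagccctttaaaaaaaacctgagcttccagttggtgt

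Sites of other members are shown with the flanking bases, at most 30 bases each and read on the strand of the gene, so that the spacing and overlap of the matches, in capitals, can be seen. Ifit3 lies beside Ifit1 on chromosome 19 and also had a pair of separate matches, beginning 156 and 122 bases before its start (chr19:34583363-34583392 and chr19:34583397-34583426, plus strand). Oas1a (chr5:120907523-120907552, minus strand), Bst2 (chr8:71537580-71537609, minus strand) and Gbp3 (chr3:142559992-142560021, plus strand) each had overlapping matches. Gbp5 (chr3:142496759-142496788, plus strand) and Stat2 (chr10:128270266-128270295, plus strand) had 1 match each. Isg20 and Xaf1 had windows without a match, and Usp18 and Zbp1 are not in the promoter table.
Ifit3, first site: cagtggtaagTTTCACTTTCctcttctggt
Ifit3, next site: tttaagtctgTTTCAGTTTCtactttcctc
Oas1a: ttctcggGAAATGGAAACTGAAAatctact
Bst2: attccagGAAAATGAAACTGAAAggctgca
Gbp3: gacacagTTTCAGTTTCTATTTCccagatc
Gbp5: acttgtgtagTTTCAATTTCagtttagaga
Stat2: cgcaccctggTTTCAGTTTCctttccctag

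All values are log2 expression values, so a difference of 1 is a 2-fold change. Array medians over all probe sets ran from 2.97 to 3.08, the number of arrays limits the precision, and all 12 macrophage markers of a fixed list lay above the array medians with list means of 8.98 to 9.47 over the arrays. Levels of different genes come from different probes, so their order in level is no comparison between genes. Of the 33 members, 8 had a mean over all arrays at or below the highest array median: Ifit2, Mx1, Mx2, Oas2, Oas3, Dhx58, Cmpk2 and Gbp5. Differences of those 8 may be lower bounds. 16 members had a mean between that median and 5, and 9 had a mean of 5 or more: Trim25, Rtp4, Bst2, Ifit3, Ifih1, Ifit1, Xaf1, Irf1 and Oasl1.

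**Figure D1:**
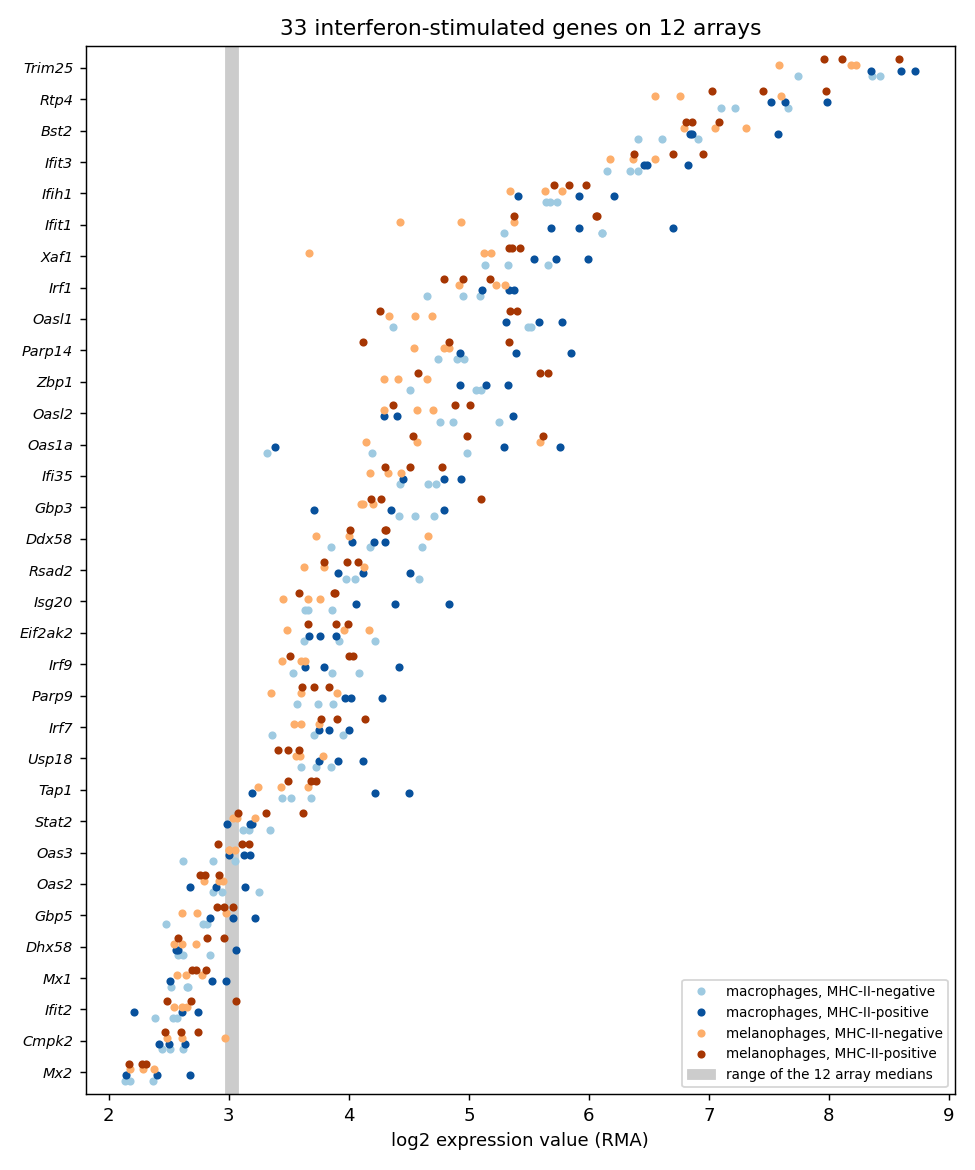
Log2 expression of the 33 measured interferon-stimulated genes on each of the 12 arrays, with genes ordered from top to bottom by their mean over all arrays, each point 1 array coloured by its group of 3, and the grey band the range of the array medians (2.97 to 3.08). The points of the 4 groups are intermixed for most genes, and the means of the 8 dim members lie in or below the band, with single arrays of Oas2, Oas3 and Gbp5 above it.

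The comparison by MHC-II, positive over negative and averaged over melanophages and macrophages, leaned to one side without any member passing the test. Of the 33 members, 29 had a higher mean in MHC-II-positive cells, where 40.2% of all genes did. Among genes brighter than the median gene, 23 of 25 members and 49.6% of the 9969 genes did. The median difference of the members was 0.17, against -0.02 over all genes. No member was called at an adjusted p under 0.05, at which 0.762% of all genes were called, and the smallest adjusted p of a member was 0.225 (Isg20). At an unadjusted p under 0.05 there were 8 members higher and 0 lower, against 4.6% of all genes higher. For 30 of the 33 members the 95% interval of the difference lay within 1 of 0, as it did for 96.5% of all genes. For members well above the array medians such an interval leaves out a 2-fold change only as far as the spread among these arrays goes, which may be technical. The 30 include the 8 dim members, whose differences may be lower bounds, so a 2-fold change in their transcript is not left out. The same limit holds for members just above the medians, such as Stat2 with a mean of 3.19. In bulk samples such as these, fewer cells with a transcript and less transcript per cell cannot be told apart.

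The IFIT proteins, which bind foreign RNA and hinder its translation, all had a higher mean in MHC-II-positive cells. Ifit1 was 4.42, 5.38 and 4.94 in MHC-II-negative melanophages and 5.38, 6.06 and 6.06 in MHC-II-positive melanophages. In macrophages it was 5.29, 6.11 and 6.11 without MHC-II and 5.69, 6.70 and 5.92 with it. The melanophage groups touched at 5.38 to 2 decimals without overlapping, and the macrophage groups overlapped. The difference of Ifit1 was 0.92 ± 0.34 (SE) in melanophages (limma, adjusted p = 0.720), 0.26 ± 0.34 in macrophages (adjusted p = 0.898) and 0.59 ± 0.24 on average (adjusted p = 0.466). Ifit3 was 6.37, 6.17 and 6.55 in MHC-II-negative melanophages and 6.38, 6.70 and 6.95 in MHC-II-positive melanophages. In macrophages Ifit3 was 6.15, 6.34 and 6.41 against 6.49, 6.83 and 6.46, which did not overlap. Its averaged difference was 0.30 ± 0.11 (adjusted p = 0.421), and that of the dim Ifit2 was 0.08 ± 0.11 (adjusted p = 0.871).

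Among the other antiviral effectors, 6 of 7 had a higher mean in MHC-II-positive cells. Isg20, an exonuclease that degrades single-stranded RNA, was 3.86, 3.66 and 3.64 in MHC-II-negative macrophages and 4.83, 4.38 and 4.06 in MHC-II-positive macrophages. In melanophages Isg20 was 3.76, 3.46 and 3.66 against 3.87, 3.59 and 3.89. The macrophage groups did not overlap and the melanophage groups did. The difference of Isg20 was 0.71 ± 0.18 in macrophages (adjusted p = 0.188) and 0.16 ± 0.18 in melanophages (adjusted p = 0.990). Xaf1, a pro-apoptotic partner of the inhibitor protein Xiap, was 5.12, 3.67 and 5.19 in MHC-II-negative and 5.36, 5.34 and 5.43 in MHC-II-positive melanophages. It was 5.13, 5.32 and 5.66 in MHC-II-negative and 5.54, 5.73 and 6.00 in MHC-II-positive macrophages. The single low array of the MHC-II-negative melanophages widened the spread, and the averaged difference of Xaf1 was 0.55 ± 0.24 (adjusted p = 0.518). Rtp4, a chaperone of G protein-coupled receptors, was 6.76, 7.60 and 6.55 against 7.02, 7.98 and 7.45 in melanophages, and 7.65, 7.22 and 7.10 against 7.63, 7.52 and 7.99 in macrophages. Its groups overlapped, with an averaged difference of 0.45 ± 0.21 (adjusted p = 0.561). Bst2 (tetherin), which holds budding virus at the cell surface, differed by 0.16 ± 0.15 on average (adjusted p = 0.803). Rsad2 (viperin), which makes a chain-terminating nucleotide, differed by 0.04 ± 0.14 (adjusted p = 0.958).

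The nucleic acid sensors and their cofactors had 5 of 6 means higher in MHC-II-positive cells. Zbp1, a sensor of left-handed nucleic acid that can trigger necroptosis, was 4.30, 4.41 and 4.65 in MHC-II-negative and 5.66, 5.59 and 4.58 in MHC-II-positive melanophages. In macrophages Zbp1 was 5.06, 5.10 and 4.51 against 5.14, 5.32 and 4.92. MHC-II-positive melanophage arrays 1 and 2 lay above all others, while array 3 lay inside the MHC-II-negative range. The difference was 0.83 ± 0.27 in melanophages (adjusted p = 0.582) and 0.53 ± 0.19 on average (adjusted p = 0.391). Trim25, the ubiquitin ligase that works with the RNA sensor Ddx58 (RIG-I), was 8.18, 7.59 and 8.23 against 8.11, 7.96 and 8.58 in melanophages. It was 7.74, 8.36 and 8.43 against 8.60, 8.72 and 8.35 in macrophages, an averaged difference of 0.30 ± 0.17 (adjusted p = 0.641). The RNA sensors Ifih1 (MDA5) and Ddx58 differed by 0.21 ± 0.13 (adjusted p = 0.674) and 0.02 ± 0.17 (adjusted p = 0.980). Eif2ak2, the kinase PKR that halts translation, had its mean on the other side, at -0.08 ± 0.13 (adjusted p = 0.891).

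The 4 transcription factors all had higher averaged means in MHC-II-positive cells, between 0.07 and 0.25. Irf7, which amplifies type I interferon production, differed by 0.25 ± 0.11 (adjusted p = 0.505) and did not overlap between the melanophage groups, at 3.60, 3.75 and 3.54 against 3.77, 3.90 and 4.13. Irf1, a factor induced mainly by interferon gamma, was 4.65, 5.09 and 4.95 in MHC-II-negative and 5.33, 5.38 and 5.11 in MHC-II-positive macrophages, without overlap. In melanophages Irf1 was 5.23, 5.30 and 4.92 against 4.79, 5.18 and 4.95. The difference of Irf1 was 0.38 ± 0.15 in macrophages (adjusted p = 0.551) and -0.18 ± 0.15 in melanophages (adjusted p = 0.977). At a second probe set of Irf1, not used here, the macrophage groups overlapped. Stat2 and Irf9, which are parts of the type I factor, differed by 0.07 ± 0.09 (adjusted p = 0.871) and 0.21 ± 0.15 (adjusted p = 0.730).

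The guanylate-binding proteins coat pathogen vacuoles, and Tap1 carries peptides to MHC class I. Gbp5, whose levels lay around the array medians, was 2.48, 2.79 and 2.82 in MHC-II-negative and 2.84, 3.22 and 3.04 in MHC-II-positive macrophages, without overlap. In melanophages Gbp5 was 2.97, 2.73 and 2.61 against 2.90, 3.03 and 2.96, which overlapped. Its averaged difference was 0.27 ± 0.09 (adjusted p = 0.365). Gbp3 was 4.12, 4.20 and 4.10 against 4.27, 5.10 and 4.18 in melanophages, and 4.41, 4.71 and 4.55 against 3.71, 4.80 and 4.35 in macrophages. Its averaged difference of 0.05 ± 0.20 (adjusted p = 0.959) was well inside the spread of the arrays, and that of Tap1 was 0.31 ± 0.19 (adjusted p = 0.680). Both poly-ADP-ribose polymerase family members had higher means in MHC-II-positive cells. Parp14 was 4.84, 4.80 and 4.54 against 4.12, 4.84 and 5.34 in melanophages, and 4.75, 4.90 and 4.96 against 4.92, 5.85 and 5.40 in macrophages. Its averaged difference was 0.28 ± 0.20 (adjusted p = 0.726), and that of Parp9 was 0.23 ± 0.10 (adjusted p = 0.530).

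The oligoadenylate synthetase (OAS) family, which includes activators of the RNA-cutting enzyme RNase L, was divided. Of the 5 members followed here, 3 had a higher mean in MHC-II-positive cells. Oasl1, a family member that restrains the translation of Irf7, was 4.69, 4.33 and 4.55 against 4.26, 5.40 and 5.34 in melanophages, and 4.37, 5.52 and 5.50 against 5.31, 5.77 and 5.59 in macrophages. It differed by 0.45 ± 0.25 on average (adjusted p = 0.636), and the groups overlapped in both cell kinds. Oas1a had the widest interval of the 33 members, from -0.53 to 1.46, which does not leave out a 2-fold higher level. Mx1, a GTPase, lay near or below the array medians at 2.78, 2.57 and 2.64 against 2.73, 2.81 and 2.70 in melanophages. In macrophages Mx1 was 2.65, 2.66 and 2.52 against 2.98, 2.86 and 2.51, and its averaged difference was 0.13 ± 0.08 (adjusted p = 0.687). The ISG15 protease Usp18, which also damps the type I receptor, differed by 0.03 ± 0.08 (adjusted p = 0.948).

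Within the cell kinds the same comparison gave 26 of 33 members above 0 in melanophages (44.3% of all genes), with a median difference of 0.19, and 25 of 33 in macrophages (42.2%), with a median of 0.20. None was called in either, where 0.211% and 0.341% of all genes were called. The arrays did not overlap, with the MHC-II-positive group higher, for 3 members in melanophages (Ifit1, Irf7 and Xaf1; 5.12% of all genes) and for 5 in macrophages (Ifit3, Isg20, Irf1, Gbp5 and Parp9; 4.96%). No member was in both sets, and 1.11% of all genes met the rule in both cell kinds. Some markers of other cells also differed in this comparison. The 5 measured of 8 monocyte markers had a mean level of 4.15 to 4.65 on the MHC-II-negative arrays and of 4.93 to 5.76 on the MHC-II-positive arrays, with Plac8 and Hp at or below the array medians. Of the 5, 2 had a higher mean in MHC-II-positive cells, and the median difference was -0.04. Ccr2, a monocyte marker that the sort was gated against, was higher in MHC-II-positive cells by 3.23 ± 0.20 (adjusted p = 3.93e-05), Chil3 differed by 1.59 ± 0.61 (adjusted p = 0.430) and F13a1 by -0.41 ± 0.15 (adjusted p = 0.407). The 9 dendritic cell markers had mean levels of 3.07 to 3.36 on the MHC-II-negative and 3.35 to 3.80 on the MHC-II-positive arrays, with Xcr1, Clec9a, Dpp4 and Kit at or below the medians. Of the 9, 6 had a higher mean in MHC-II-positive cells, and Cd207 and Ccr7 were called. The 10 measured T and NK cell markers had mean levels of 3.03 to 3.20 against 3.12 to 3.34, with 7 at or below the medians. Of the 10, 5 had a higher mean in MHC-II-positive cells, with a median difference of -0.0014, and 1 was called, Cd2, at 1.37 ± 0.13 (adjusted p = 0.000454). The part of these markers in the member values was not tested.

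**Figure D2:**
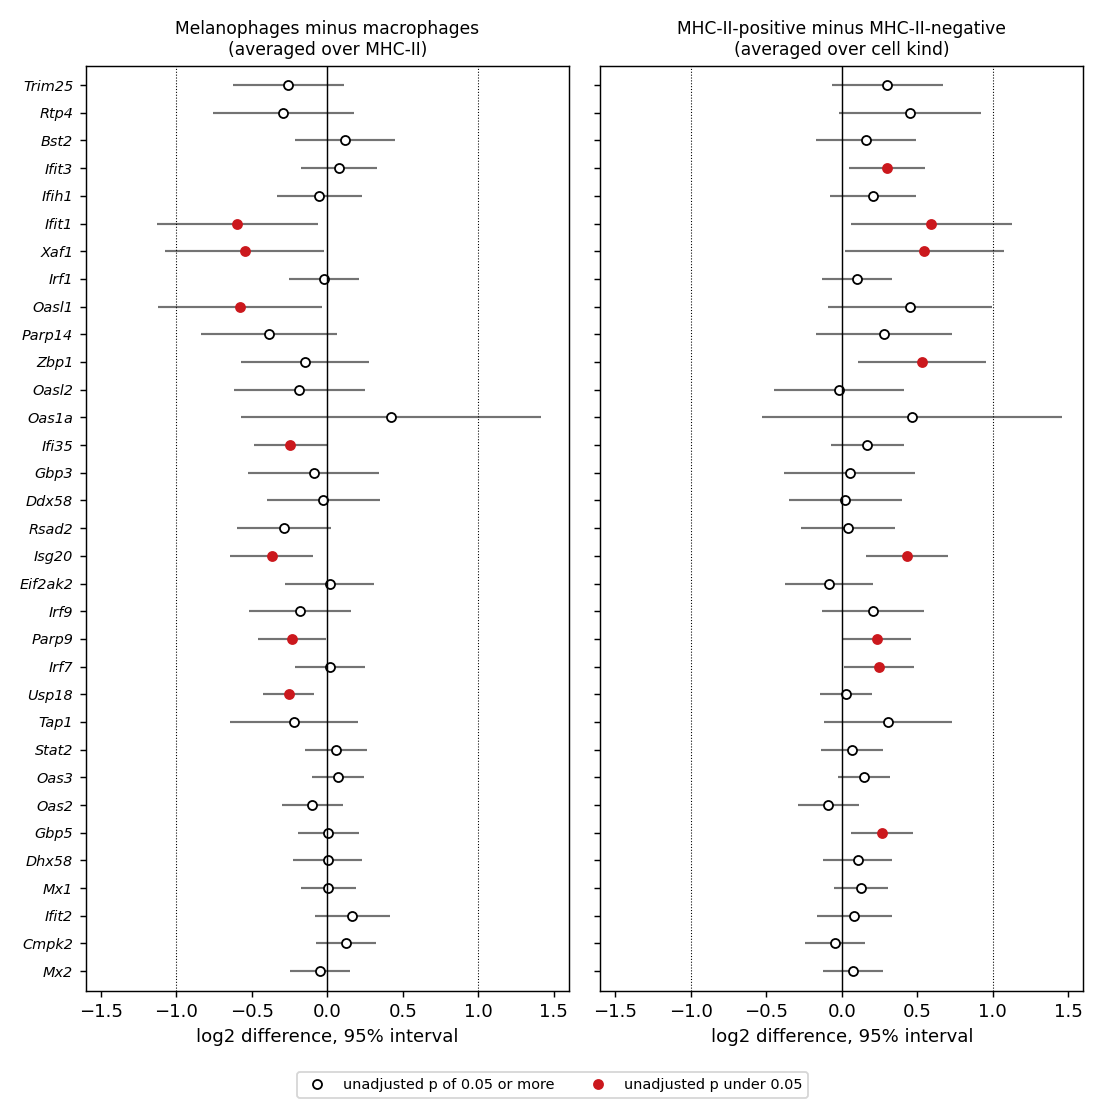
Log2 differences of the 33 interferon-stimulated genes (points), with 95% intervals of the fit (lines) and red points for an unadjusted p under 0.05, for the MHC-II comparison (positive minus negative) and the cell kind comparison (melanophages minus macrophages). In the MHC-II comparison 29 of 33 points lie above 0, and in the cell kind comparison 12 of 33 do, and the intervals of most members include 0.

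The comparison of melanophages with macrophages leaned the other way, again with no member called. Averaged over MHC-II, 21 of 33 members had a lower mean in melanophages and 12 a higher one, whereas 54.8% of all genes had a higher mean. The median difference was -0.09 against 0.01 over all genes. No member was called where 0.12% of all genes were, and the smallest adjusted p was 0.404 (Usp18). At an unadjusted p under 0.05 there were 7 members lower and 0 higher (Ifit1, Isg20, Oasl1, Usp18, Ifi35, Xaf1 and Parp9), against 3.42% of all genes lower. For 29 of 33 members, the 8 dim ones among them, the 95% interval lay within 1 of 0, against 97.0% of all genes.

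Usp18 was 3.73, 3.60 and 3.85 in MHC-II-negative and 3.75, 3.91 and 4.12 in MHC-II-positive macrophages. It was 3.78, 3.59 and 3.56 in MHC-II-negative and 3.41, 3.59 and 3.49 in MHC-II-positive melanophages. The MHC-II-positive groups did not overlap and the MHC-II-negative groups did. The difference of Usp18 was -0.43 ± 0.11 in MHC-II-positive cells (adjusted p = 0.429) and -0.26 ± 0.08 on average (adjusted p = 0.404). Isg20, with the array values given above, differed by -0.64 ± 0.18 in MHC-II-positive cells (adjusted p = 0.508) and by -0.09 ± 0.18 in MHC-II-negative cells (adjusted p = 0.993). Ifit1 differed by -0.93 ± 0.34 in MHC-II-negative cells (adjusted p = 0.754), by -0.27 ± 0.34 in MHC-II-positive cells (adjusted p = 0.957) and by -0.60 ± 0.24 on average, with a 95% interval from -1.13 to -0.06 (adjusted p = 0.610). Oasl1 differed by -0.58 ± 0.25 on average (adjusted p = 0.646).

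By role, both PARP members and 5 of the 7 other antiviral effectors had lower means in melanophages, and so did 4 of the 6 sensors. Ifi35, which binds partner proteins after interferon, and Parp9 had averaged differences of -0.25 ± 0.11 (adjusted p = 0.655) and -0.24 ± 0.10 (adjusted p = 0.653). Xaf1 differed by -0.55 ± 0.24 (adjusted p = 0.654), and by -0.71 ± 0.34 in MHC-II-negative cells (adjusted p = 0.913), where the melanophage array at 3.67 was the lowest of the 12. On the other side, Ifit2 differed by 0.16 ± 0.11 (adjusted p = 0.798), Bst2 by 0.12 ± 0.15 (adjusted p = 0.913) and Oas1a by 0.42 ± 0.45 (adjusted p = 0.880). The transcription factors were split, with Irf7 and Stat2 above 0 and Irf1 and Irf9 below it.

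In MHC-II-negative cells 10 of 33 members had a higher mean in melanophages (52.4% of all genes), with a median difference of -0.10. In MHC-II-positive cells 12 did (54.2%), with a median of -0.07. None was called in either, where 0.00502% and 0.015% of all genes were called. The melanophage arrays lay below all macrophage arrays without overlap for Oasl2 and Gbp3 in MHC-II-negative cells (3.91% of all genes) and for Isg20, Usp18, Xaf1 and Parp9 in MHC-II-positive cells (4.91%). Of the 9 dendritic cell markers 1, Cd207, was called lower in melanophages, and the list means ran from 3.07 to 3.80 on macrophage and from 3.10 to 3.66 on melanophage arrays. Its part in the member values was not tested. Both cell kind comparisons and both MHC-II comparisons use the same 12 arrays and are given side by side only.

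Whether the MHC-II difference itself differed between melanophages and macrophages was tested as an interaction. No member was called, nor was any of the 19938 genes (0.0%), and every member had an adjusted p of 1.0. The power was low: in simulated data the fit called 32% of brighter genes given an interaction of 1. The median interaction of the members was 0.06, against 0.00 for all genes. At an unadjusted p under 0.05 there were 3 members, all with a smaller MHC-II difference in melanophages, against 4.11% of all genes in either direction. They were Irf1 at -0.55 ± 0.21, Isg20 at -0.55 ± 0.25 and Usp18 at -0.35 ± 0.15. Ifit1 had an interaction of 0.66 ± 0.48, so its larger MHC-II difference in melanophages was not distinguished from the one in macrophages.

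Averaged over the 33 members, MHC-II-negative melanophage arrays stood at 4.25, 4.13 and 4.18, and MHC-II-positive melanophage arrays at 4.31, 4.47 and 4.40. MHC-II-negative macrophage arrays stood at 4.25, 4.38 and 4.31, and MHC-II-positive macrophage arrays at 4.46, 4.70 and 4.38. The MHC-II-positive macrophages held the highest array, replicate 2, on which 30 of the 33 members exceeded their mean over all arrays. The group means were 4.19 ± 0.06 (SD, n = 3), 4.39 ± 0.08, 4.31 ± 0.07 and 4.51 ± 0.16 in that order. No test was made of this mean.

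**Figure D3:**
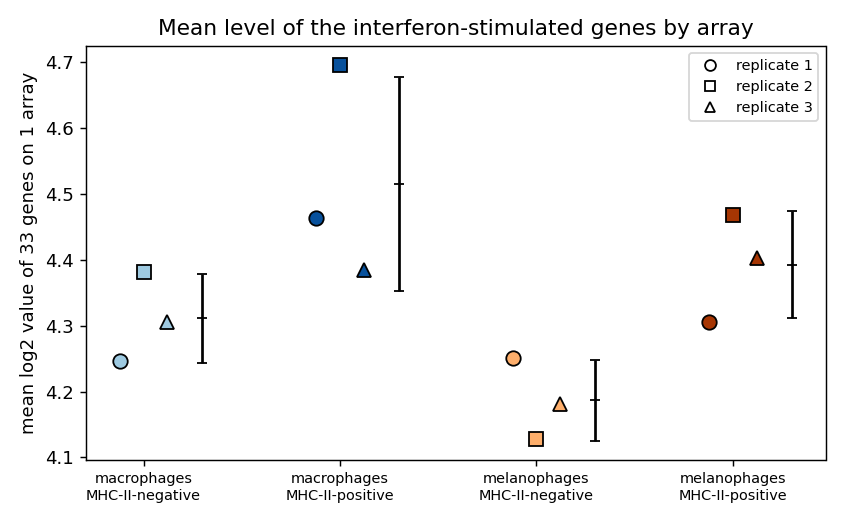
Mean log2 expression of the 33 members on each array (points, with a symbol for each replicate number) and, beside them, the mean of each group of 3 arrays with its SD; the axis does not start at 0. The array means run from 4.13 to 4.70, and the highest belongs to replicate 2 of the MHC-II-positive macrophages.

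The sample titles carry codes in 3 runs of consecutive numbers, each with 1 array of every group, and the labels do not call these runs a batch. Once group means were removed, arrays of the same run but different groups had a mean correlation over the members of 0.29 (18 pairs, from -0.14 to 0.68), against -0.02 over all genes. Between arrays of different runs it was -0.14 over the members (36 pairs, from -0.54 to 0.29) and 0.01 over all genes. Removing the mean of 3 arrays ties the values within and between runs to each other. These pairs also share arrays, and no p is given. Ifit1 had a mean of 5.20, 6.06 and 5.76 over the 4 arrays of each run. Within the runs, its MHC-II difference was 0.96, 0.69 and 1.13 in melanophages, and 0.39, 0.59 and -0.19 in macrophages. With the run as a term in the fit, the averaged MHC-II difference of Ifit1 was 0.59 ± 0.10 with an adjusted p of 0.0487, and the averaged cell kind difference was -0.60 ± 0.10 with an adjusted p of 0.141. Ifit1 was the only one of the 33 that passed in any alternative tried, and only in that MHC-II comparison.

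The members moved together only loosely. Over the 12 arrays the median correlation between pairs of members was 0.16, and with group means removed it was 0.05. For the 25 members brighter than the median gene the values were 0.22 and 0.05, and for all genes brighter than it 0.01 and 0.01. Of the members with a promoter window and a probe set, 12 with a match to the response element and 12 without one had median MHC-II differences of 0.15 and 0.23, and 11 and 10 of them had a higher mean in MHC-II-positive cells. Between melanophages and macrophages the median differences were 0.01 with a match, with 7 of 12 above 0, and -0.20 without one, with 3 of 12 above 0. The difference between the sets was not tested.

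The rest of the pathway was read from fixed lists. Of 15 measured interferon genes, 0 were called in any comparison, and 9 lay at or below the highest array median. Of all genes at most 0.762% were called in a comparison. Ifnb1, the first type I interferon made after sensing, varied widely inside groups, at 3.51, 6.16 and 4.30 in MHC-II-negative and 4.82, 6.86 and 6.13 in MHC-II-positive melanophages. In macrophages Ifnb1 was 5.44, 5.33 and 5.49 against 4.87, 6.09 and 6.21. Its averaged MHC-II difference was 0.79 ± 0.47 (adjusted p = 0.665). All 6 receptor subunits were measured and 0 were called, 5 of them with a higher mean in MHC-II-positive cells (40.2% of all genes). Ifnar1 was 6.32, 5.69 and 6.11 against 6.72, 6.65 and 6.62 in melanophages, which did not overlap, and 5.99, 6.82 and 6.37 against 6.99, 6.75 and 6.91 in macrophages. The averaged difference of Ifnar1 was 0.56 ± 0.14 (adjusted p = 0.150).

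Among 10 measured signal transducers, 1 was called, in the averaged MHC-II comparison, where 0.762% of all genes were. Jak2, a kinase of the interferon gamma receptor and of cytokine receptors, was 4.55, 4.51 and 4.83 against 5.42, 5.26 and 6.03 in melanophages, and 5.32, 5.04 and 5.05 against 5.72, 5.83 and 5.44 in macrophages. The MHC-II-positive arrays lay above the MHC-II-negative arrays in each cell kind, and Jak2 rose by 0.74 ± 0.14 (adjusted p = 0.0371). The call was lost in 12 of 23 alternatives, with adjusted p up to 0.0967. Among these were the fits without any 1 of the 3 MHC-II-negative melanophage arrays, MHC-II-positive melanophage replicate 1, MHC-II-negative macrophage replicates 2 and 3, or MHC-II-positive macrophage replicates 1 and 2. Of 10 negative regulators, such as Socs1, and 15 sensors and adaptors upstream of interferon, 0 were called. In no comparison were more than 0.762% of all genes called.

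Of 54 other genes induced mostly by type I interferon, 1 was called higher in MHC-II-positive cells on average and 0 lower. Over all genes the shares were 0.632% and 0.13%. At an unadjusted p under 0.05, 8 were higher and 5 lower on average, against 4.6% and 4.62% of all genes. In this list 33 of 54 had a higher averaged mean (40.2% of all genes), with a median of 0.07. In melanophages 26 of 54 did (44.3% of all genes), with a median of -0.0045. The called gene was Ms4a4c, a membrane protein of the Ms4a family, at 4.23, 4.05 and 3.98 against 5.81, 5.59 and 5.003 in melanophages, and 3.86, 4.12 and 3.73 against 6.49, 5.79 and 6.33 in macrophages. The groups were well apart in both cell kinds. Ms4a4c rose by 1.84 ± 0.16 on average (adjusted p = 0.000252) and by 2.30 ± 0.22 in macrophages (adjusted p = 0.00123), and was called in every alternative tried for both. In melanophages it rose by 1.38 ± 0.22 (adjusted p = 0.0411), a call lost in 15 of 24 alternatives, with adjusted p up to 0.188. Those included the fits without any 1 of the MHC-II-negative arrays of either cell kind, MHC-II-positive melanophage replicates 1 and 2, or MHC-II-positive macrophage replicate 3. Ly6e, a surface protein of the same list, differed by -0.66 ± 0.11 between melanophages and macrophages (adjusted p = 0.0596) and was not called.

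Of 25 other genes induced mostly by interferon gamma, 2 were called higher in MHC-II-positive cells, Cd74 and Acod1. In the averaged MHC-II comparison 0.632% of all genes were called higher. At an unadjusted p under 0.05, 10 of the 25 were higher and 0 lower on average, against 4.6% and 4.62% of all genes. In this list 20 of 25 had a higher averaged mean (40.2% of all genes), with a median of 0.17. Cd74, the invariant chain of MHC-II, rose by 3.65 ± 0.29 (adjusted p = 0.000145), which follows the marker used for the sort. Acod1, the enzyme that makes itaconate, rose by 0.77 ± 0.14 (adjusted p = 0.0383), and its arrays were 3.34, 3.59 and 3.46 against 4.36, 4.98 and 4.42 in melanophages. In macrophages Acod1 was 3.93, 3.35 and 3.85 against 3.86, 4.18 and 4.36, and overlapped. The call was lost in 13 of 22 alternatives, with adjusted p up to 0.101. Those included the fits without any 1 of the MHC-II-negative melanophage arrays or any 1 of replicates 2 and 3 of the other 3 groups. The chemokine gene Cxcl10 was 5.34, 7.98 and 6.38 against 7.87, 8.67 and 7.86 in melanophages, and its averaged difference of 1.42 ± 0.48 was not called (adjusted p = 0.346). No gene of the 7 lists was called between melanophages and macrophages, where at most 0.12% of all genes were, or in the interaction.

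**Figure D4:**
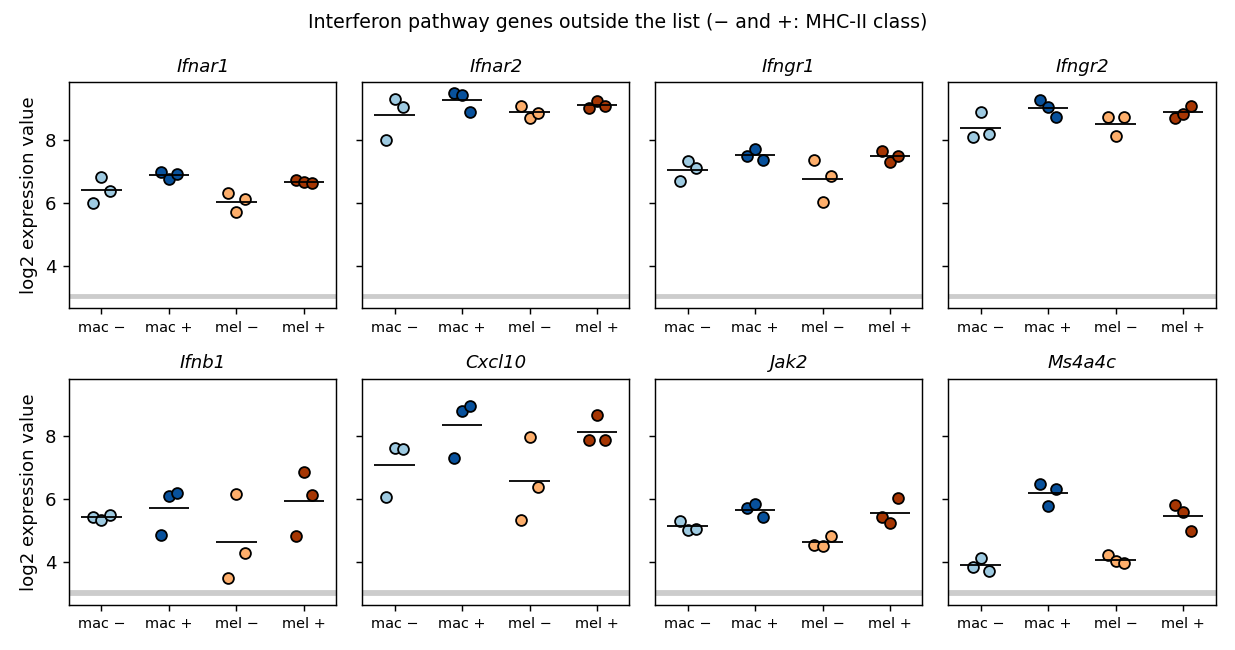
Log2 expression of 8 interferon pathway genes outside the 33 members, with each point 1 array, the line the mean of a group of 3 (mac, macrophages; mel, melanophages; - and +, MHC-II class) and the grey band the range of the array medians. Jak2 and Ms4a4c, called in the averaged MHC-II comparison, separate the MHC-II classes in each cell kind, whereas Ifnb1 and Cxcl10 vary widely inside groups.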

How the data were processed

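Gene expression was measured on 12 Affymetrix arrays, 3 for each group. RNA (Qiagen RNeasy Plus Micro) was amplified with the NuGEN Ovation Pico system, per the labels' protocols. The deposited values are log2 expression, which the authors computed by robust multi-array average (RMA) in oligo, per the submitters' processing notes; its settings are not stated there. RMA quantile-normalizes arrays, so a shift shared by all genes cannot be seen. Of 35556 probe sets, 21789 carry 1 symbol, 1621 several and 12146 none. Each of 19938 genes was read at its brightest probe set, which for Irf1 was 1 of a pair, and dim genes were kept.

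Group means were estimated in limma 3.58.1 in R 4.3.3 (lmFit and eBayes, a mean per group, all arrays together, 8 residual and 2.44 prior degrees of freedom). The 7 comparisons were two-sided, with Benjamini-Hochberg adjustment over all genes, and a gene was called at an adjusted p under 0.05. Errors are standard errors of the fit unless SD is given. The fit was tested on simulated data with independent noise and known changes in 200 of the brighter genes. A log2 change of 1 was called in 76% of its genes between cell kinds on average. In the averaged MHC-II comparison 77% were called, and in the interaction 32%. False calls numbered 4, 10 and 9 in that order. Symbols and motifs were searched with Python 3.11.15, on both strands. Members with array values in full were the brightest of each role and those with the smallest p of each comparison. Others were named after their values were seen.

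The members and lists were chosen with earlier results of these data known. Alternatives were filters on dim genes, normalization, probe set rule, moderation, array weights, title code run, fewer arrays and single arrays left out.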

Additional observations from a re-analysis of the deposited data

How the results depend on the processing

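No member was called in any alternative except Ifit1 in the averaged MHC-II comparison with the title code run as a term, where 1 member passed (adjusted p = 0.0487). The median difference of the members kept its sign in all 23 alternatives of both averaged comparisons, in all 24 of the cell kind comparison in MHC-II-negative cells and both MHC-II comparisons within a cell kind, and in 23 of 24 in MHC-II-positive cells. With genes at 5 or more in at least 3 arrays, which leaves 13 members, the median was -0.23 between cell kinds in MHC-II-positive cells, 0.30 in the averaged MHC-II comparison and 0.38 in that of macrophages. With genes above the mean of the array medians, which leaves 26 members, it was -0.185 between cell kinds in MHC-II-positive cells. The median interaction kept its sign in 18 of 23 alternatives. It was -0.073 without MHC-II-negative melanophage replicate 2, ran from -0.07 to 0.11 with 1 array left out, and was -0.044 without both macrophage arrays that stood farthest from their mates, MHC-II-negative replicate 1 and MHC-II-positive replicate 3. The cause of these shifts was not tested, and the filters also leave fewer members. The labels give no replicate numbers shared between groups, so the title code run was the block that could be fitted. With it, 145 of all genes were called in the averaged MHC-II comparison, against 152 without it, 18 against 24 between cell kinds on average, and 6 against 1 between cell kinds in MHC-II-negative cells. Differences of dim members may be lower bounds.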

Other observations

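Irf1 has a second probe set, not used above, with a lower mean of 4.57 against 5.07. It read 4.27, 4.65 and 4.50 in MHC-II-negative and 4.84, 4.79 and 4.63 in MHC-II-positive macrophages, which overlapped. In melanophages it read 4.90, 4.31 and 4.33 against 4.63, 4.66 and 4.33. The lack of overlap of Irf1 in macrophages therefore held only at the probe set used. The genes whose pattern over the 12 arrays was most like the mean of the members, among 9944 candidates, were Jarid2 (Pearson r = 0.93), Olfm1 (0.92), Plat (0.91), Lpcat2 (0.91) and Runx3 (0.90). With group means removed they were Aak1 (0.96), Hdac9 (0.96), Klhl9 (0.95), Crybg1 (0.95) and Surf6 (0.94). They were picked as the highest of many and are a description, with no p. Of the 20 places in both lists of 10, none went to a gene of the other interferon lists.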
